A study of Mus musculus with 6 samples.

Results

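Genes of cell cycle arrest, the p53 response and cellular senescence were followed in mouse retina: the CDK inhibitor genes Cdkn1a, Cdkn1b, Cdkn1c, Cdkn2a and Cdkn2b, the p53 gene Trp53, its antagonist Mdm2, the stress cytokine gene Gdf15, and the senescence markers Glb1 and Lmnb1. They were chosen by name, and all 10 were found among the 54532 genes of the count table, each under a single gene ID; 9 of them had enough counts to be tested, and Cdkn2a did not. Total RNA of whole retina was sequenced from wild-type (WT) C57BL/6J mice at postnatal day 17, with 3 libraries from normal mice and 3 from mice labelled OIR. OIR usually stands for oxygen-induced retinopathy, in which pups breathe extra oxygen and are later moved back to room air; capillaries are lost first, and the hypoxic retina then forms abnormal vessels. Neither the oxygen level nor its timing is given in the sources used here. The labels do not say whether each library came from a separate animal or from pooled retinas. Each p-value therefore reflects no more than the variation among these 6 libraries, which may be technical in part. The control group differs from the OIR group by the whole procedure.

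Cells leave the division cycle when inhibitor proteins bind the cyclin-dependent kinases (CDKs). The CIP/KIP inhibitors p21, p27 and p57 (genes Cdkn1a, Cdkn1b and Cdkn1c) bind most cyclin-CDK pairs, whereas the INK4 inhibitors (Cdkn2a, Cdkn2b, Cdkn2c and Cdkn2d) bind CDK4 and CDK6. The transcription factor p53 is held low by the ubiquitin ligase MDM2 and, once stabilised, switches on Cdkn1a and Mdm2 among many targets. In senescence, a lasting arrest with secretion of cytokines and proteases, p16 and p21 are high, lysosomal beta-galactosidase activity rises and lamin B1 is lost, and cells with these features have been described in the ischaemic retina of this model.

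Depth was 15818168 to 17163513 counts per library. Levels are given as CPM, counts scaled to library size with the TMM method, with the SD over 3 libraries. In edgeR's quasi-likelihood test, 19.8% of the 17108 genes tested passed an adjusted p of 0.05, with 11.1% (1901) higher and 8.73% (1493) lower in OIR retina. Leaving out Normal 3 gave 1237 higher and 769 lower calls, and the lower calls dropped to 761 when OIR 1 was left out and to 860 when OIR 2 was. Library OIR 3 stood apart in lens transcripts: 8 lens markers summed to 5290 CPM there, against 71.7 CPM in OIR 1, 317 CPM in OIR 2 and 6.53 to 326 CPM in the normal libraries. By Xist and Y-linked counts, Normal 1, Normal 3 and OIR 2 were male and the other 3 libraries female. The libraries of a group thus did not all come from the same animal. The OIR libraries also had more RNA of blood vessels, blood and microglia: 7 endothelial markers summed to 139.7 to 198 CPM in normal and 392 to 443 CPM in OIR libraries, and 8 microglia and macrophage markers to 43.3 to 57.9 CPM and 95.5 to 129.9 CPM. Rod markers summed to 41914 to 45114 CPM in normal and 33759 to 37899 CPM in OIR libraries. The part of these cell types in the results that follow was not tested.

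The sequences just upstream of the starts of 3 of these genes are shown because Cdkn1a and Mdm2 are both textbook p53 targets, of which Cdkn1a passed the test in OIR retina and Mdm2 did not, and because Cdkn1b also passed. Each run holds the 250 bases before a RefSeq start (GRCm38.p6, the build called mm10), 5′ to 3′ on the strand of the gene. Capitals mark matches on either strand to ACGTG (the core of the hypoxia response element), TGANTCA (AP-1), GGGCGG (the Sp1 box) and the p53 decamer consensus, the 10-base unit that p53 binds in pairs.
Cdkn1a, upstream start, chr17:29090729-29090978, plus strand: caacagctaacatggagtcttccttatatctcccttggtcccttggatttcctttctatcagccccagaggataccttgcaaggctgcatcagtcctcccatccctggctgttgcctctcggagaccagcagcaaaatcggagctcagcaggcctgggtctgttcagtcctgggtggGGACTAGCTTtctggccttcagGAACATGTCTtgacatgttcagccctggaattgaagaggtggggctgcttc
Cdkn1a, downstream start, chr17:29093519-29093768, plus strand: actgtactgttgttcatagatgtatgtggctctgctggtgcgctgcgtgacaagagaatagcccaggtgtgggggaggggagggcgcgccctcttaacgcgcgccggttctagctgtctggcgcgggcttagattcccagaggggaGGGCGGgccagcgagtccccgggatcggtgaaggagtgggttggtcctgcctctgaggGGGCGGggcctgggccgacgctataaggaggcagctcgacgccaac
Cdkn1b, chr6:134920151-134920400, plus strand: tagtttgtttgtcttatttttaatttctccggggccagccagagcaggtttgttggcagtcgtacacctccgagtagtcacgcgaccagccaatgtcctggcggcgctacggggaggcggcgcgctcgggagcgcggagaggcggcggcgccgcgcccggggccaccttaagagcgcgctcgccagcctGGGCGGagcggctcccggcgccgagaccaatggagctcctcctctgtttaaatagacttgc
Mdm2, chr10:117710759-117711008, minus strand: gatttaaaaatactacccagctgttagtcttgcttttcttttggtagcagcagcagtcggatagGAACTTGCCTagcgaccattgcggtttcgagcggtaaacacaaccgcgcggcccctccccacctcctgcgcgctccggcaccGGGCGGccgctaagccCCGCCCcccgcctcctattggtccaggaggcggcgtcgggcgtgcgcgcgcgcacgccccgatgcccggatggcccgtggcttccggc

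The upstream Cdkn1a start had 2 p53 decamers, beginning 73 and 51 bases before it and close enough to count as a pair (a spacer of at most 13 bases). Such a pair stood in 21 of 32851 promoter windows of the same length, or 0.0639%, and at least 1 decamer in 7.13%. Matches allowed no mismatch. In the upstream Cdkn1a window, the stretch right after the second decamer misses the consensus at its first base only. It was neither marked nor counted. The 21 windows belong to 18 genes, of which 11 were tested; Cdkn1a and the interferon-inducible gene Ifitm2 (log2 fold change 1.47) were higher in OIR retina and the receptor gene Npsr1 (−1.67) was lower, with a median of 0.20. The downstream Cdkn1a start had no decamer and 2 Sp1 boxes, which 32.7% of windows have at least once. Mdm2 had 1 decamer and 2 Sp1 boxes, and Cdkn1b had 1 Sp1 box. None of the 4 windows printed held ACGTG or TGANTCA, found in 16.6% and 6.75% of all windows. Windows not printed did: Glb1 had 2 overlapping ACGTG matches and 1 TGANTCA, and 1 of the Gdf15 starts had 2 overlapping ACGTG matches. Trp53 also passed the test, but its window is not printed because 147 of its bases lie in exons of coding transcripts. The Trp53 window had 1 p53 decamer, 75 bases before the start. Of the 27 p53 target genes listed here that have a window, 9 had at least 1 decamer and 0 had the pair. These matches describe the letters of the windows; the Mdm2 elements known to bind p53 lie further downstream and were not analysed here.

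Of the 9 genes tested, Cdkn1a had the highest fold change. This gene (ENSMUSG00000023067, chromosome 17, 29090976 to 29100727, plus strand, mm10) had 6.17, 6.69 and 6.94 CPM in the normal libraries and 24.2, 35.1 and 28.7 CPM in the OIR libraries. The lowest OIR library lay far above the highest normal one, and the OIR libraries were spread more widely (SD 5.52 CPM) than the normal ones (SD 0.394 CPM). The mean went from 6.60 ± 0.394 to 29.3 ± 5.52 CPM (SD, n = 3 per group), a 4.44-fold rise with a 95% interval of 3.51 to 5.62 (log2 fold change 2.15, standard error 0.153, edgeR adjusted p of 7.89e-06). Ordered by fold change from the highest rise, it stood at place 239 of the 17108 genes tested. Permuting the group labels exactly, 2-sided, gave p = 0.1, the smallest that 3 against 3 libraries allow. Between male libraries the log2 difference was 2.34 and between female ones 1.90, and leaving out any 1 library gave 1.99 to 2.27. A transcript annotated on the opposite strand shares 273 exon bases with Cdkn1a, and its own rows held 2 and 10 counts in the groups.

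Cdkn1b encodes p27, which keeps cells out of the cycle and is known from Müller glia, which span the retina. It was already abundant (ENSMUSG00000003031, chromosome 6, 134920401 to 134925513, plus strand) and rose by a small amount. Its normal libraries had 123, 129 and 127 CPM and its OIR libraries 149, 149 and 150.4 CPM. The groups did not overlap and the OIR libraries were nearly equal. The means were 126 ± 2.92 and 149.5 ± 0.775 CPM (SD, n = 3), a 1.19-fold rise with an interval of 1.08 to 1.30 (edgeR adjusted p of 0.0169). The adjusted p was 0.0568 without Normal 3, 0.0777 without OIR 1, 0.0893 without OIR 2, 0.0657 without OIR 3 and 0.0549 with sex as a covariate, while the log2 fold change stayed between 0.23 and 0.26 over all the fits without 1 library. Of 7 Müller glia markers, 5 fell and 0 rose, or 71.4% lower against 8.73% of all genes tested. Their summed levels were 3904 to 4651 CPM in normal and 2870 to 3487 CPM in OIR libraries. Falls were not particular to these markers: 4 of 5 bipolar, 4 of 5 amacrine and 3 of 5 rod markers also fell, and 0 of 6 ganglion cell markers. The cell source of the Cdkn1b change was not tested.

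Cdkn1c, the imprinted gene of p57 (ENSMUSG00000037664, chromosome 7, 143458339 to 143461050, minus strand), showed no shared shift of the OIR libraries. It had 28.6, 27.6 and 22.6 CPM in normal libraries and 20.9, 20.3 and 35.3 CPM in OIR libraries. OIR 1 and OIR 2 were below every normal library and OIR 3 above all of them. The fold was 0.968 with an interval of 0.718 to 1.31 (edgeR adjusted p of 0.899). Without OIR 3, the library rich in lens RNA, the log2 fold change was −0.37 with an adjusted p of 0.105, and without OIR 2 it was 0.09. The part of lens RNA in the OIR 3 value was not tested. An antisense gene shares 625 exon bases with Cdkn1c but held only 0 and 4 counts.

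Divided by gene length, Cdkn1a held a larger share of the CIP/KIP family in every OIR library than in any normal library. Cdkn1a made up 4.06%, 4.31% and 4.78% of the summed CPM per kb of Cdkn1a, Cdkn1b and Cdkn1c in the normal libraries, and 13.7%, 18.8% and 13.8% in the OIR libraries. Cdkn1b remained the main member in each library, with 63.1% to 68.1% in normal and 56.6% to 65.8% in OIR retina. The family sum was 42.4 ± 1.40 CPM per kb in normal and 53.6 ± 4.40 CPM per kb in OIR retina (SD, n = 3; exact permutation p = 0.1, the smallest possible).

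**Figure D1:**
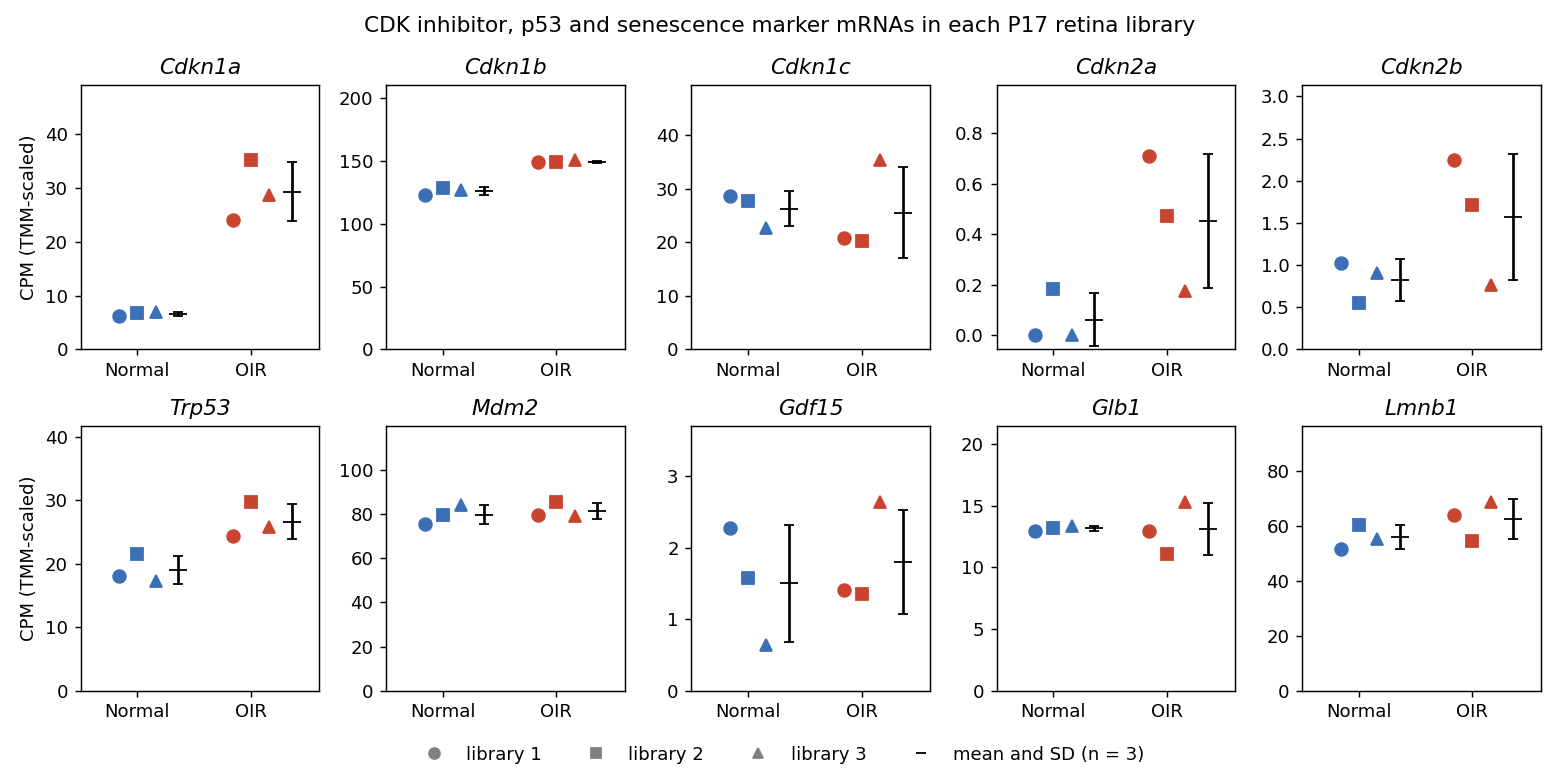
CPM of each of the 10 genes in every library (y axis, TMM-scaled, each panel with its own scale), with normal libraries in blue, OIR libraries in red, and the mean and SD over 3 libraries in black. The OIR points lie above all normal points for Cdkn1a, Cdkn1b and Trp53; OIR 3 (triangle) lies apart from the other OIR libraries for Cdkn1c, Cdkn2b and Gdf15.

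The INK4 genes Cdkn2a and Cdkn2b were close to the limit of detection. Cdkn2a (ENSMUSG00000044303, chromosome 4, 89274471 to 89294653, minus strand) makes p16 and, from another first exon, ARF, which binds MDM2; counts per gene merge both. It had 0, 3 and 0 counts in the normal libraries and 12, 8 and 3 in the OIR libraries. OIR 1 and OIR 2 were above every normal library, and OIR 3 had as many counts as Normal 2. The summed counts were 3 and 23, and their scaled ratio was 7.32, with a 95% Clopper-Pearson interval of 2.21 to 38.1, which covers counting error only. In a normal library a count of 0 allows up to 3 counts, or 0.179 CPM in Normal 1 and 0.193 CPM in Normal 3. The gene had too few counts to be tested, and with no filter its edgeR adjusted p was 0.0625.

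Cdkn2b, the neighbouring gene of the TGF-beta-inducible inhibitor p15 (ENSMUSG00000073802, chromosome 4, 89306299 to 89311039, minus strand), had 1.02, 0.547 and 0.900 CPM in the normal and 2.24, 1.71 and 0.764 CPM in the OIR libraries. As with Cdkn2a, OIR 1 and OIR 2 were above all normal libraries and OIR 3 was among them. The fold was 1.90 with an interval of 0.970 to 3.73 and did not pass (edgeR adjusted p of 0.174); without OIR 3 the log2 fold change was 1.25, against 0.93 with it, and without OIR 1 it was 0.58. Of the other INK4 genes, Cdkn2c, which encodes p18, rose 2.04-fold from 8.26 ± 1.24 to 16.9 ± 1.57 CPM (SD, n = 3; edgeR adjusted p of 0.000673). Cdkn2d, which encodes p19 of the INK4 family and not ARF, had 23.5 ± 3.02 and 27.1 ± 0.718 CPM and did not pass (adjusted p of 0.227).

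Among 17 regulators of the Cdkn2a and Cdkn2b locus, 7 rose and 1 fell, or 41.2% and 5.88%, against 11.1% and 8.73% of all genes tested. The median log2 fold change was 0.19, against 0.01 over all genes tested. The ETS factor genes Ets1 and Ets2, activators of p16, rose 2.82-fold and 1.81-fold, and Kdm6b, the demethylase that removes the polycomb mark, rose 1.27-fold. Bhlhe40, a hypoxia-inducible repressor, rose 2.02-fold from 48.5 ± 4.35 to 98.0 ± 10.3 CPM. Among the polycomb genes, Cbx8 rose 1.26-fold, while Bmi1 and Ezh2 did not pass, with log2 fold changes of −0.13 and 0.08. Id1 and Tbx3 also rose, 1.51-fold and 1.34-fold, and the single fall was in Id2, 1.55-fold. The count of falls was 0 without Normal 3, without OIR 1 or without OIR 2 and 3 without Normal 1.

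Trp53 rose modestly while Mdm2 did not pass. Trp53 (ENSMUSG00000059552, chromosome 11, 69580359 to 69591873, plus strand) had 18.1, 21.5 and 17.4 CPM in the normal and 24.5, 29.8 and 25.7 CPM in the OIR libraries. Every OIR library was above every normal one. The means were 19.0 ± 2.23 and 26.7 ± 2.78 CPM (SD, n = 3), a 1.40-fold rise with an interval of 1.17 to 1.69 (edgeR adjusted p of 0.0168). Leaving out Normal 3 ended the call (log2 fold change 0.43, adjusted p of 0.0782), and so did leaving out OIR 2 (0.39, 0.0826). The log2 difference was 0.73 among male and 0.22 among female libraries. Activity of p53 is set mainly by the stability of the protein, which these data do not measure.

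Mdm2 (ENSMUSG00000020184, chromosome 10, 117688875 to 117710758, minus strand) had 75.5, 79.8 and 84.1 CPM in the normal and 79.6, 85.7 and 79.1 CPM in the OIR libraries. The groups overlapped throughout. Its fold was 1.02 with an interval of 0.909 to 1.15 (edgeR adjusted p of 0.827), so the interval leaves out a change of the size seen for Cdkn1a, whose lower bound was 3.51. The ratio of Mdm2 to Trp53 per kb was 3.32, 2.95 and 3.86 in normal and 2.59, 2.29 and 2.45 in OIR libraries. This ratio was lower in each OIR library than in each normal library (exact permutation p = 0.1, the smallest possible).

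**Figure D2:**
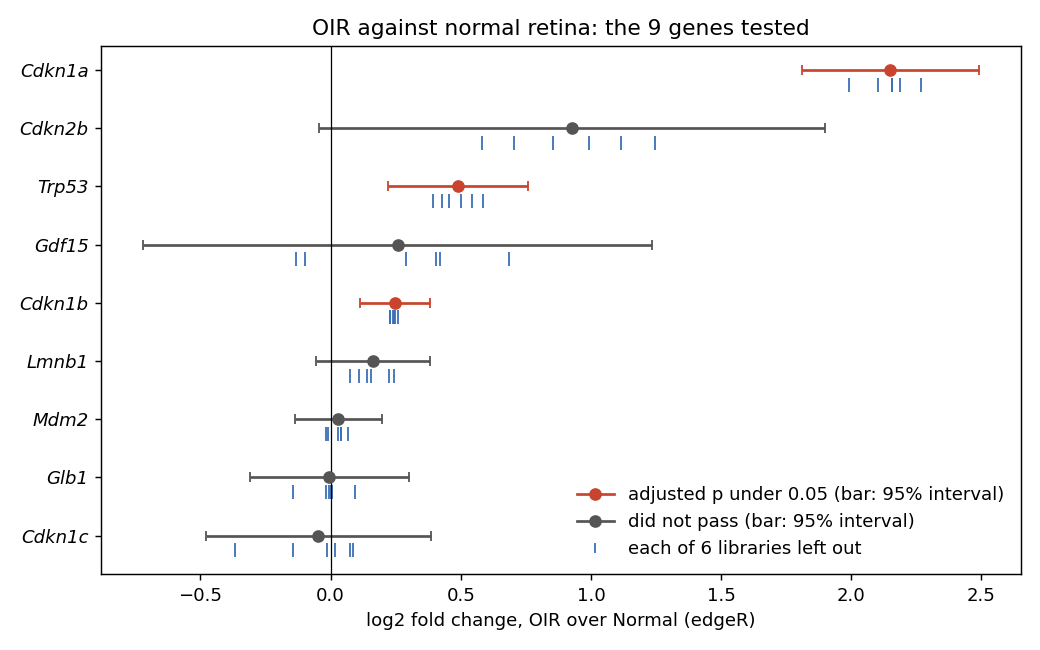
Log2 fold change of OIR over normal retina (x axis) for the 9 genes tested, with the 95% interval as a bar, red where the edgeR adjusted p is under 0.05; blue ticks under each point are the values with each of the 6 libraries left out. Cdkn1a lies apart at 2.15, Trp53 and Cdkn1b pass at 0.49 and 0.25, and the intervals of the other 6 genes include 0.

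Other p53 targets were counted next. Of 33 tested genes in a list of 35 targets besides Cdkn1a, Mdm2 and Gdf15, 7 rose, 4 fell and 22 did not pass, or 21.2% higher and 12.1% lower, against 11.1% and 8.73% of all genes tested, so the share of falls was near the background. The median log2 fold change was 0.22. The proapoptotic BH3-only gene Pmaip1 went from 1.24 ± 0.564 to 4.32 ± 0.598 CPM (SD, n = 3), a rise of 3.45-fold. Also higher were the AKT inhibitor gene Phlda3, 2.10-fold, the kinase gene Plk2, 1.73-fold, and the antiproliferative gene Btg2, 1.41-fold. The cytokine gene Lif rose 17.1-fold from 0.448 ± 0.174 to 7.85 ± 3.38 CPM. With 22 normal and 400 OIR counts, Lif had enough to be tested only through the OIR libraries. Tnfrsf10b, a death receptor gene, and Rps27l also rose, 1.83-fold and 1.36-fold, but neither passed without Normal 3 or without OIR 2 (adjusted p of 0.0710 and 0.0537 for Tnfrsf10b, 0.144 and 0.138 for Rps27l). Tnfrsf10b also did not pass without Normal 2 (0.0528) or OIR 1 (0.0702), nor Rps27l without OIR 3 (0.123) or with sex as a covariate (0.0659). The falls were in Cyfip2 (1.41-fold lower), the sestrin gene Sesn3 (1.31-fold), the RNA-binding protein gene Zmat3 (1.28-fold) and the cyclin G1 gene Ccng1 (1.20-fold); without Normal 3 or without OIR 1, 2 members fell, and neither Zmat3 (adjusted p of 0.0761 and 0.0741) nor Ccng1 (0.107 and 0.0700) passed. Ccng1 also did not pass without Normal 2 (0.0604), without OIR 2 (0.137) or with library totals alone (0.0620), and Zmat3 not with sex as a covariate (0.0502). Bax, Bbc3 and Sesn2 did not pass, with log2 fold changes of 0.02, 0.45 and −0.02. Eda2r, a p53-induced receptor gene too low to be tested, had 4 counts in normal and 37 in OIR retina; the scaled ratio was 8.84 (counting interval 3.18 to 34.1). Pmaip1, Phlda3, Tnfrsf10b, Rps27l, Sesn3, Zmat3, Ccng1, Bax, Bbc3, Sesn2 and Eda2r were picked for mention after their values were seen.

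**Figure D3:**
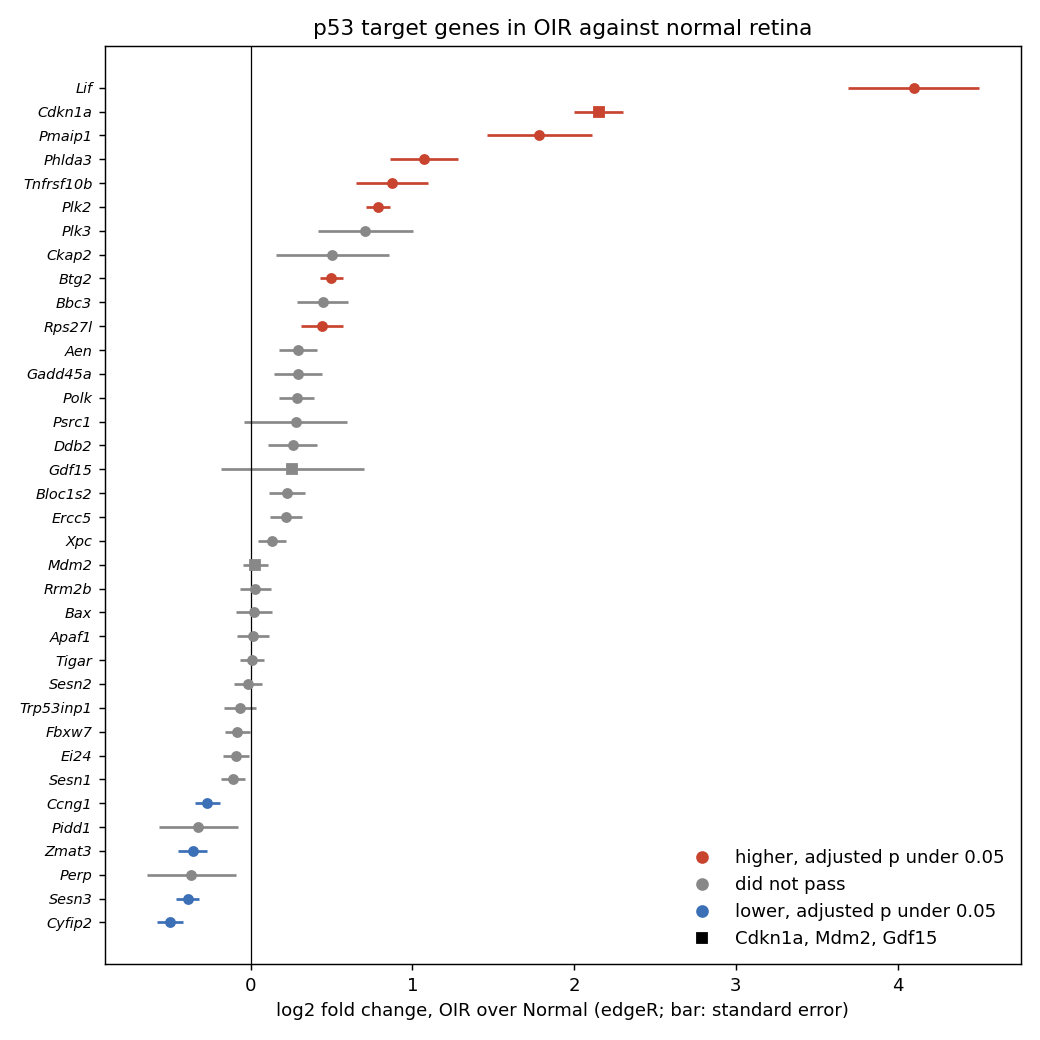
Log2 fold change of OIR over normal retina (x axis) with its standard error for the p53 targets tested, red where higher and blue where lower at an edgeR adjusted p under 0.05, grey where the gene did not pass, and squares for Cdkn1a, Mdm2 and Gdf15. Cdkn1a at 2.15 is second to Lif at 4.10, and Mdm2 and Gdf15 are among the grey genes.

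Of 15 tested genes that control p53, 1 rose and 3 fell, or 6.67% and 20.0%, against 11.1% and 8.73% of all genes tested, with a median log2 fold change of 0.04. Without Normal 3, OIR 2 or OIR 3, 0 rose and 1 fell, and without Normal 1, 3 rose. The checkpoint kinase gene Chek2 went from 1.65 ± 0.275 to 3.32 ± 0.587 CPM, a rise of 2.01-fold (SD, n = 3). The p53 kinase gene Hipk2 fell by 0.41 on the log2 scale, and Trp53bp1, a DNA break adaptor gene, fell by 0.26. The p53 family gene Trp63 fell by 2.28 from only 57 to 12 counts. Trp63 had enough counts to be tested only through the normal libraries, where it is high. The share of falls depends in part on that entry. Chek2 and Trp63 no longer passed without Normal 3 (adjusted p of 0.0516 and 0.112), without OIR 2 (0.0613 and 0.0594) or without OIR 3 (0.0731 and 0.0612), and Chek2 also not without Normal 2 (0.0606) and Trp63 not without Normal 1 (0.0716). Trp53bp1 was lost without Normal 3 (0.100) and without OIR 1, 2 or 3 (0.0608, 0.0925 and 0.0595), with sex as a covariate (0.0658) and with library totals alone (0.0552). With sex as a covariate Trp63 did not pass either (0.0570). Mdm4, the MDM2 partner gene, and the kinase gene Atm did not pass, with log2 fold changes of 0.04 each.

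Gdf15, a secreted TGF-beta family member induced by p53 and by the integrated stress response, was low and variable (ENSMUSG00000038508, chromosome 8, 70629393 to 70632456, minus strand). It had 2.28, 1.58 and 0.643 CPM in the normal and 1.41, 1.36 and 2.64 CPM in the OIR libraries, from 10 to 45 counts each. The lowest value was in Normal 3 and the highest in OIR 3, and the groups overlapped. The fold was 1.20 with an interval of 0.607 to 2.36 (edgeR adjusted p of 0.736), wide enough that a change by a factor of 2 upward could not be told from none at this depth. The log2 fold change was 0.26, and it was −0.10 without Normal 3 and −0.13 without OIR 3. Of 8 tested stress-response genes listed as context for Gdf15, 6 rose and 0 fell. That is 75.0% higher against 11.1% of all genes tested, with a median of 0.63. Atf3 rose 6.05-fold, Egr1 3.96-fold, Trib3 1.83-fold and Ddit3 1.30-fold. The GDF15 receptor gene Gfral had 0 counts in all libraries.

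Glb1, the lysosomal beta-galactosidase whose activity is stained in senescent cells, had nearly the same level in both groups (ENSMUSG00000045594, chromosome 9, 114401076 to 114474898, plus strand). The normal libraries held 12.9, 13.2 and 13.4 CPM and the OIR libraries 13.0, 11.1 and 15.3 CPM. The normal libraries were nearly equal, while OIR 2 was below and OIR 3 above all of them. The fold was 0.997 with an interval of 0.806 to 1.23 (edgeR adjusted p of 0.987). Tmppe, an overlapping gene on the same strand, shares 165 exon bases with Glb1. Of 26 other lysosomal genes, 7 rose and 1 fell, or 26.9% and 3.85%, against 11.1% and 8.73% of all genes tested, with a median log2 fold change of 0.08. Ctsz, a cathepsin gene, rose 1.58-fold and the fucosidase gene Fuca1 1.54-fold, while the iduronate sulfatase gene Ids fell by 0.46 on the log2 scale. The count of rises was 4 without Normal 3, and 2 genes fell without Normal 2. Neu1, whose product works in one complex with beta-galactosidase, had a log2 fold change of 0.01 and did not pass.

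Lmnb1, the lamin B1 gene (ENSMUSG00000024590, chromosome 18, 56707813 to 56753424, plus strand), was not lower in OIR retina. It had 51.8, 60.5 and 55.4 CPM in the normal and 64.2, 54.7 and 68.9 CPM in the OIR libraries. OIR 1 and OIR 3 were above all normal libraries and OIR 2 was among them. The fold was 1.12 with an interval of 0.963 to 1.30 (edgeR adjusted p of 0.288). Of 16 other genes of the nuclear lamina and chromatin, 4 rose and 0 fell, or 25% higher against 11.1% of all genes tested, with a median log2 fold change of 0.19; 2 fell without Normal 1. Lmna, the gene of lamins A and C, went from 12.9 ± 2.36 to 31.4 ± 2.96 CPM, a rise of 2.43-fold (SD, n = 3). The nuclear envelope gene Sun2 rose 1.55-fold and the chromatin protein gene Hmgb2, which senescent cells lose, 1.44-fold. Hmga2, a chromatin protein gene of fetal and senescent cells, rose 3.53-fold from 0.764 ± 0.247 to 2.71 ± 1.47 CPM, but did not pass without Normal 1 (adjusted p of 0.0577), Normal 3 (0.0725), OIR 2 (0.105) or OIR 3 (0.0543), nor in limma-voom (0.0594).

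**Figure D4:**
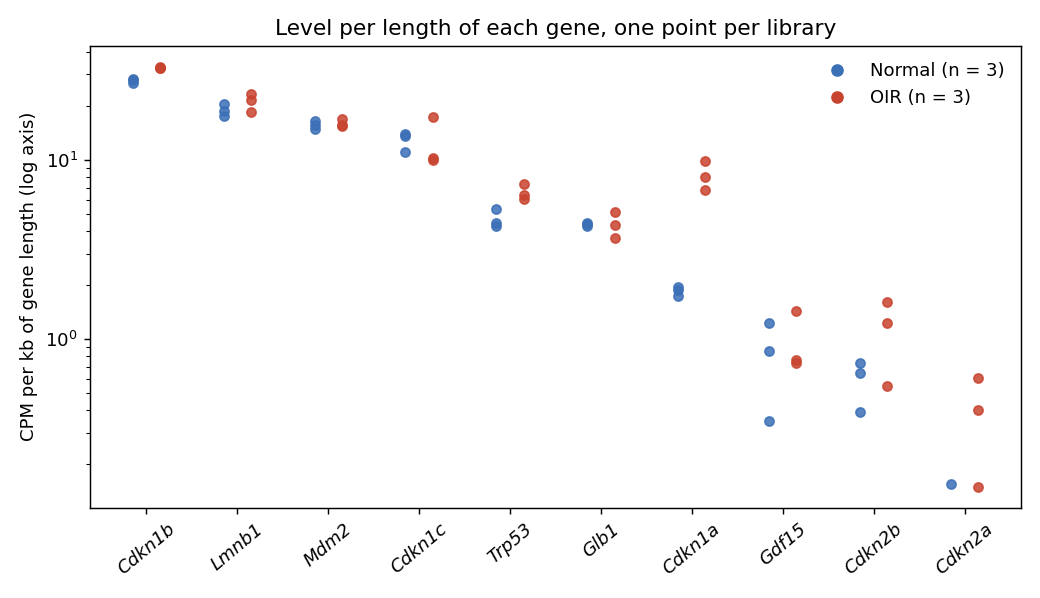
CPM per kb of gene length (y axis, log scale) of the 10 genes in normal (blue) and OIR (red) libraries, ordered by the normal mean; a library with 0 counts has no point. The order runs from Cdkn1b at 27.7 to Cdkn2a at 0.0519 CPM per kb in normal retina, and Cdkn1a goes from the seventh place to above Trp53 and Glb1 in OIR retina.

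Per length, the order of the normal means was Cdkn1b with 27.7 ± 0.642, Lmnb1 with 18.9 ± 1.48, Mdm2 with 15.7 ± 0.842, Cdkn1c with 12.9 ± 1.58, Trp53 with 4.70 ± 0.550, Glb1 with 4.38 ± 0.0725, Cdkn1a with 1.86 ± 0.111, Gdf15 with 0.810 ± 0.443, Cdkn2b with 0.591 ± 0.176 and Cdkn2a with 0.0519 ± 0.0899 CPM per kb (SD, n = 3). Trp53 and Glb1 overlapped in their libraries, as did Gdf15 and Cdkn2b, and the other neighbours in this order did not. In OIR retina Cdkn1a reached 8.25 ± 1.55 CPM per kb, with Trp53 at 6.59 ± 0.687 and Glb1 at 4.37 ± 0.708 CPM per kb. The ranges of Cdkn1a and Trp53 overlapped there, but within each OIR library Cdkn1a was the higher. The values were 6.80 against 6.05 in OIR 1, 9.89 against 7.36 in OIR 2 and 8.07 against 6.36 in OIR 3. The length is that of the deposited table and takes no account of which transcript was used.

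The genes that the inhibitors act on or with were described next. Of 15 genes of CDKs, cyclins and the RB-E2F pathway, 8 rose and 0 fell, or 53.3% against 11.1% higher over all genes tested, with a median log2 fold change of 0.33; 1 fell without Normal 1. The cyclin D genes Ccnd1 and Ccnd2, whose products drive CDK4 and CDK6, both rose. Ccnd1 went from 23.6 ± 0.906 to 66.4 ± 5.72 CPM, or 2.82-fold, and Ccnd2 from 13.4 ± 1.87 to 31.9 ± 2.30 CPM, or 2.39-fold (SD, n = 3). The kinase gene Cdk2 rose 2.14-fold and the S-phase transcription factor gene E2f1 2.26-fold. The retinoblastoma gene Rb1 and its relative Rbl2 did not pass, each with a log2 fold change of −0.13. Of 16 proliferation genes, 9 rose and 0 fell, or 56.3% higher against 11.1% of all genes tested, with a median of 1.33. Most of the 9, among them Mki67 (21 normal and 494 OIR counts) and Bub1 (14 and 86), had enough counts to be tested only through the OIR libraries. The share of rises and the median of this list depend in part on that entry. The levels of all 16 summed to 104.7 to 113 CPM in normal and 153 to 180.3 CPM in OIR libraries. Markers of dividing cells and the inhibitor Cdkn1a were high in the same libraries, and whole retina does not show whether in the same cells. In such bulk samples a change in the number of cells of a type and a change in RNA per cell cannot be told apart.

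Genes of the senescence-associated secretory phenotype rose as a majority of those tested. Of 48 listed, 34 were tested, and 23 of these rose and 1 fell, or 67.6% and 2.94%, against 11.1% and 8.73% of all genes tested. Some of the 23 had enough counts to be tested only through the OIR libraries, where they are high. Among them were Ccl2, Ccl3, Plaur (5 normal and 164 OIR counts), Timp1 (17 and 288), Mmp12 (15 and 75) and Areg (16 and 58). The share of rises and the median depend in part on that entry. The median log2 fold change was 1.40. The uncertain size of the change in the chemokine gene Ccl3 (0 normal counts) could not move it. Its fitted value and its bound of at least 15.9-fold both lie above the median. The fibroblast growth factor gene Fgf2 went from 18.4 ± 1.80 to 133 ± 32.8 CPM (SD, n = 3), a rise of 7.19-fold. Also higher were the plasminogen activator gene Plat, 3.46-fold from 15.3 ± 0.832 to 53.2 ± 8.44 CPM, the growth factor binding protein gene Igfbp3, 9.90-fold, and the vascular growth factor gene Vegfa, 3.11-fold. The single fall, in the chemokine gene Cxcl16 (log2 fold change −0.44), was not among the calls without Normal 3, OIR 1 or OIR 2, and 2 genes fell without Normal 2. The chemokine genes Ccl2, with 1 count in normal and 105 in OIR libraries, and Ccl3, with 0 and 50, were among those that rose. Some other inflammatory members were too low to test. Il6 had 0 counts in normal and 3 in OIR libraries, and Il1b 3 and 16, for a scaled ratio of 5.10 (counting interval 1.46 to 27.3). The chemokine gene Cxcl1, with 0 and 44 counts, was higher by at least 14.0-fold when the normal group as a whole is set to 3 counts, and Tnf, with 0 and 19, at least 6.05-fold. Many genes of this list are also made by endothelial cells, glia or macrophages or respond to hypoxia, and the part of those cells in these values was not tested.

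**Figure D5:**
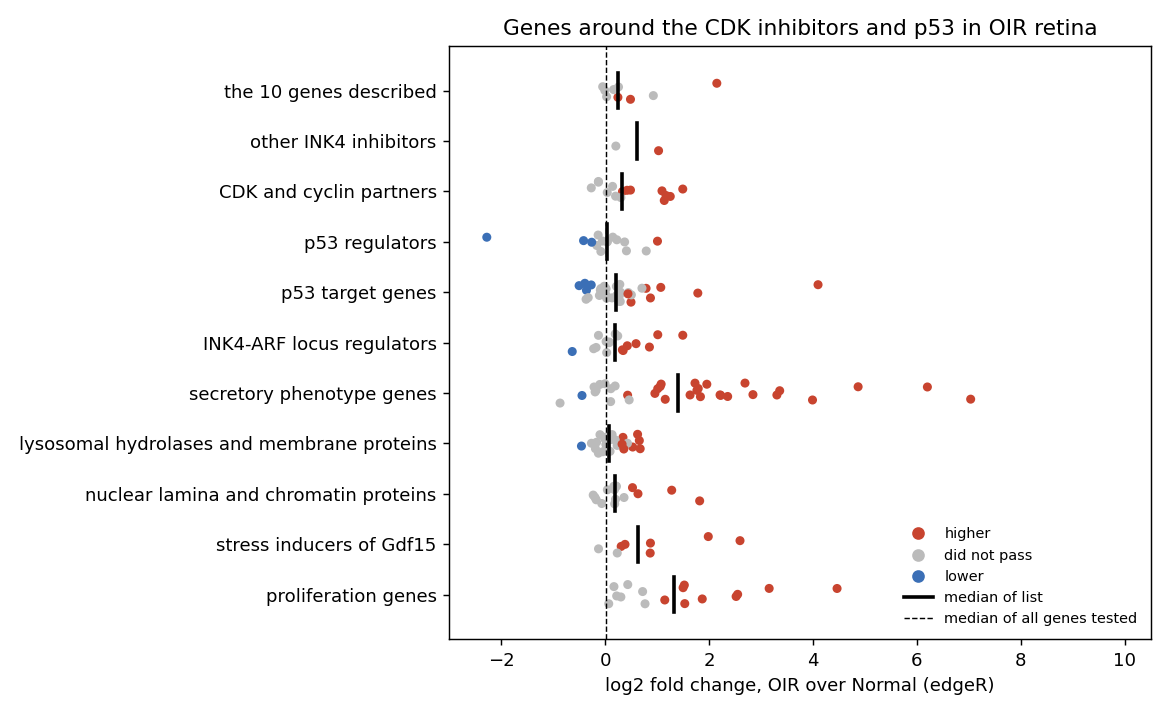
Log2 fold change of OIR over normal retina (x axis) for the tested genes of each list, one point per gene, red where higher and blue where lower at an edgeR adjusted p under 0.05; black bars are list medians and the dashed line is the median of all genes tested, 0.01. Secretory phenotype and proliferation genes have medians of 1.40 and 1.33, whereas p53 regulators have a median of 0.04; the fitted value of Ccl3, at the far right, depends on the prior count because the normal libraries held 0 counts.

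Of the 9 genes tested, 3 rose and 0 fell at an adjusted p of 0.05, against 11.1% higher and 8.73% lower over all genes tested. The same 3 were those whose groups did not overlap, with OIR above normal, as in 18.7% of all genes tested. The median log2 fold change of the 9 tested genes was 0.25. Without Normal 3, or without OIR 2, Cdkn1a alone was called.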

How the data were processed

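RNA of 3 normal and 3 OIR mouse retina samples was sequenced. Per the labels' protocols, TRIzol was used to extract RNA and a NEBNext Ultra RNA kit to build the libraries. In the deposited table, each gene has raw counts per sample and a gene length, with symbols and positions. Per the submitters' processing notes, base calling used CASAVA 1.8, alignment HISAT2 2.0.5 and counting featureCounts 1.5.0-p3, on mm10, with fastp and DESeq2 1.20.0 also named. The annotation release and strand setting were not given in the sources used here. Columns were matched to samples by name: those with OIR to the OIR titles with that number, the others to the normal titles.

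Counts were tested with edgeR 4.0.16 (R 4.3.3; quasi-likelihood, TMM, filterByExpr with minimum count 10 and total 15, no covariate) over all 17108 genes kept, with Benjamini-Hochberg adjustment; calls are at 0.05. The standard error is the log2 fold change over the root of F, and 95% intervals use the moderated degrees of freedom. The filter can keep a gene through the counts of 1 group alone. Within-sex differences used log2 of CPM plus 0.5. Motifs were searched in RefSeq promoter windows. No 2 replicates were as close as sampling noise alone would make them (chi-square over its degrees of freedom 7.20 to 23.1). Alternatives were DESeq2 1.42.0, limma-voom (limma 3.58.1), other scalings and filters, a replicate block, sex as a covariate, removal of 23 lens genes, each library left out, and a threshold of 0.01. Tests were checked on simulated counts.

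The members and lists were chosen with earlier results of these data known. The rule names all members and, per list, up to 4 called genes with the smallest adjusted p. With fewer than 2 called, it names the 2 with the highest mean CPM. Bmi1, Ezh2, Cbx8, Id1, Id2, Tbx3, Mdm4, Atm, Gfral, Neu1, Rb1 and Rbl2 were added for context after their values were seen. Cxcl16, Ccl2, Ccl3, Il6, Il1b, Cxcl1, Tnf, Ifitm2 and Npsr1 were added in the same way. One gene that the rule names is not reported here.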

Additional observations from a re-analysis of the deposited data

How the results depend on the processing

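Cdkn1a kept its direction and its call in all 16 alternatives (log2 fold change 1.99 to 2.27), and Lmnb1 stayed without a call (0.08 to 0.24). Leaving out 1 library gave 1237 to 2097 genes called higher, 761 to 1734 lower and 1 to 3 members higher, with log2 fold changes of 0.23 to 0.26 for Cdkn1b, 0.39 to 0.59 for Trp53, −0.37 to 0.0858 for Cdkn1c, 0.58 to 1.25 for Cdkn2b, −0.13 to 0.69 for Gdf15, −0.14 to 0.10 for Glb1 and −0.0175 to 0.0671 for Mdm2. At an adjusted p under 0.01, 1116 genes were higher and 647 lower, and 1 member was called; Cdkn1b (0.25) and Trp53 (0.49) were not. Cdkn1b was also lost with sex as a covariate (0.24), and Glb1 turned to 0.0379 with library totals alone. The cause of these shifts was not tested, except that fits without a library have fewer samples. With no filter, Cdkn2a had 2.73 and did not pass. The stricter filter removed Cdkn2b.

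With the replicate number as a block, 1680 genes were higher and 1166 lower, and the same number of members, 3, were higher; among the named list genes, Rps27l lost its call (adjusted p of 0.0695). Same-numbered libraries did not deviate together (correlations 0.08, −0.21 and 0.10 over genes), so the numbers are not taken as pairs. Of 320 counts of list members under the alternatives, 44 moved by more than 1.5 times. Of 719 values of 45 named list genes, 674 kept their side of the threshold, 45 lost the call and 0 reversed. Genes under about 10 counts per library, among them Cdkn2a, are limited by depth.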
